A study of Mus musculus with 4 samples.

Results

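The genes described here encode 9 receptors that act on transcription of Tnfsf11, the gene of the osteoclast-inducing cytokine RANKL. They were taken by name, as 9 of the 32286 features in the deposited feature list: Vdr, Rxra, Pth1r, Nr3c1, Esr1, Il6st, Osmr, Lifr and Il11ra1. All mice were C57BL/6J, 10 weeks old and of genotype Tnfsf11tTA/+;LC1;R26-tdTomato, and all had received doxycycline from E0 until birth. In these animals a tetracycline transactivator sits at 1 Tnfsf11 allele and drives the Cre of LC1, so that cells in which the locus has been active after birth, and their descendants, carry tdTomato. The control pool held 4 mice and the immobilized pool 6 mice whose hindlimbs had been immobilized for 2 weeks from 8 weeks of age. Live CD45.2-Ter119-tdTomato+ cells of the flushed marrow and digested femurs and tibias were profiled by droplet 3' single-cell RNA-seq. Because the sort reads a Tnfsf11-driven reporter, a difference in which cells were sorted and a difference within cells cannot be told apart.

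RANKL is made by stromal and osteoblast-lineage cells and binds RANK on osteoclast precursors. Active vitamin D binds the nuclear receptor VDR, which pairs with RXR on DNA, and parathyroid hormone binds PTH1R, a G protein-coupled receptor that raises cyclic AMP. Both hormones raise Tnfsf11 transcription in osteoblast-lineage cells, partly through enhancers far upstream of the gene. Interleukin 11, oncostatin M and leukaemia inhibitory factor signal through gp130, encoded by Il6st, joined to a receptor of their own, and activate STAT3, which also acts on Tnfsf11. Glucocorticoids act through the receptor encoded by Nr3c1, and oestrogen, which restrains bone resorption, through the receptor encoded by Esr1.

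Each group was 1 pool, sequenced in 2 lanes. The lanes shared 1617 of 1620 control barcodes and 1747 of the 1751 immobilized barcodes of lane 1, had differences smaller than sampling noise and were averaged, so that each group counts as 1 sample. Each lane held between 9960011 and 10860328 UMIs, and 1411 control and 1394 immobilized cells were kept, at median depths of 5576.5 and 5706.5 UMIs; 3 barcodes occurred in both groups. With 1 pool per group there is no test across animals, and spread between mice enters none of the intervals below, all at 95%. Those of levels and ratios cover counting error only, so spread between cells does not enter them either. Those of shares of cells count each cell as 1 draw from its pool, so they do not compare animals. Levels are CPM, the counts of a gene per 1000000 UMIs of the class.

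Clusters were named by markers, with "-like" for every rebuilt name. Lepr+ CAR stromal-like cells, which resemble the reticular cells that make most of the marrow's Cxcl12, numbered 614 (control) and 351 (immobilized). All 12 markers of the type were raised in each of their clusters. Osteo-primed stromal-like cells, marked by Wif1, Limch1, Tnc and Mmp13, numbered 222 and 389, and osteoblast-like cells, marked by Bglap, Col1a1 and Ifitm5, numbered 459 and 440. Clusters 11 and 0 held most control Lepr+ CAR stromal-like cells (240 and 203) and cluster 0 most immobilized ones (210). Among osteoblast-like cells cluster 8 was the most numerous in the control pool (165 cells, against 16) and cluster 7 in the immobilized pool (195, against 63). The share of female cells among those whose sex could be called differed too: it was 51.4% and 30.7% in Lepr+ CAR stromal-like, 65.7% and 56.5% in osteo-primed stromal-like and 93.9% and 77.8% in osteoblast-like cells. Haematopoietic-like cells that had passed the sort, 69 and 118, served as the measure of free RNA.

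The promoters of 3 genes that stood higher together in immobilized Lepr+ CAR stromal-like cells (below) are shown first: the ligand gene and the receptor genes Vdr and Osmr. Each run is the 250 bases before the RefSeq start (GRCm38.p6), 5′ to 3′ on the gene's own strand. For Vdr and Osmr the window lies inside the gene span printed below, which comes from another annotation (GENCODE) and begins further upstream. Capitals mark matches, on either strand, to 7 motifs: the nuclear receptor half-site AGGTCA, the cyclic AMP response element TGACGTCA, the palindromic glucocorticoid and oestrogen response elements, the STAT site TTCNNNGAA, the TATA box TATAAA and the GC box GGGCGG. The half-site and the oestrogen response element can overlap.
Tnfsf11, chr14:78308044-78308293, minus strand: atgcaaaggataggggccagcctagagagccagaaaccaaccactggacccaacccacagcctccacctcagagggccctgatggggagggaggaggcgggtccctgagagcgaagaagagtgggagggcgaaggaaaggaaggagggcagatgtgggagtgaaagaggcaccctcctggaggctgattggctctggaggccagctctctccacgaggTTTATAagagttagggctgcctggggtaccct
Vdr, chr15:97908297-97908546, minus strand: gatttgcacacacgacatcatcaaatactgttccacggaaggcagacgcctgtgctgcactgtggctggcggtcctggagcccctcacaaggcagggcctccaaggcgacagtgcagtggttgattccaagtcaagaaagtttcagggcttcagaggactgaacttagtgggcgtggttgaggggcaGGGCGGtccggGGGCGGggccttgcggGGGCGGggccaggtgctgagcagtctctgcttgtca
Osmr, chr15:6874314-6874563, minus strand: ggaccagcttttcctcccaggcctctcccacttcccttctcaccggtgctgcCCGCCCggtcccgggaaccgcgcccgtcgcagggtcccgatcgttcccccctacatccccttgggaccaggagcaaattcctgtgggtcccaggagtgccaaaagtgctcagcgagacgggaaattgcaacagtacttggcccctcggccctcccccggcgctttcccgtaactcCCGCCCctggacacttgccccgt

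The Tnfsf11 window held 1 TATA box match, 32 bases before the start and on the strand opposite to the gene's own, and no GC box. The Vdr window held 3 GC boxes on the gene's own strand, at 63, 52 and 36 bases before the start. The Osmr window held 2 on the opposite strand, at 198 and 23 bases. Of all 32851 windows of this length, 12.4% held a TATA box match and 32.7% a GC box. None of the 3 windows held the other 5 motifs, which 14% (half-site), 1.55% (cyclic AMP), 0.00913% (glucocorticoid), 0.0639% (oestrogen) and 7.02% (STAT) of all windows held. These matches describe letters in a window, not sites of binding.

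The 9 receptor genes were distributed over the 3 classes in different orders. Vdr, Esr1 and Lifr were highest in osteo-primed stromal-like cells in both pools, Il6st, Osmr and Il11ra1 in Lepr+ CAR stromal-like cells, and Pth1r in osteoblast-like cells. Tnfsf11 itself followed the second pattern: it stood at 89.96 CPM in control Lepr+ CAR stromal-like, 42.8 in osteo-primed stromal-like and 1.36 in osteoblast-like cells. In the immobilized pool the 3 values were 222.1, 56.9 and 3.08 CPM. Haematopoietic-like cells, the measure of free RNA, had Tnfsf11 at 1.555 and 2.971 CPM on 0.5 and 1 UMIs. The osteoblast-like level was thus not apart from free RNA. The class with the highest level of the ligand gene therefore had the lowest control level of Vdr and the lowest level of Pth1r among the 3 classes.

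**Figure D1:**
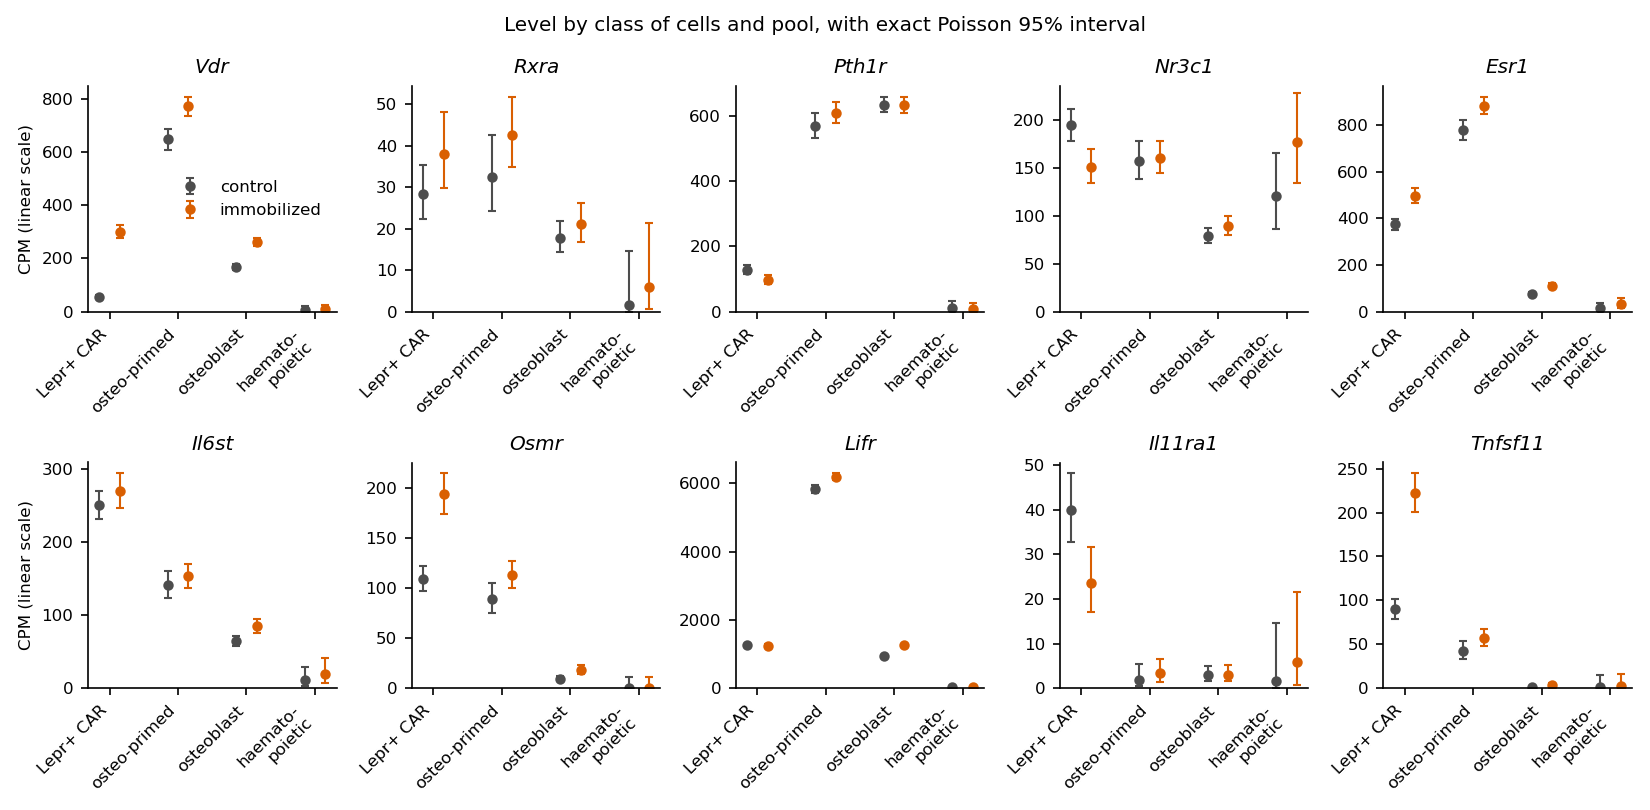
Level (CPM, linear scale from 0) of the 9 receptor genes and Tnfsf11 in the control (grey) and immobilized (orange) pool, in 3 skeletal classes and in haematopoietic-like cells; points are pool values and bars exact Poisson 95% intervals. Vdr in Lepr+ CAR stromal-like cells goes from 54.7 to 300.8 CPM, while the order of Il6st, Osmr and Tnfsf11 over the classes is the same in both pools.

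Of the vitamin D receptor pair, Vdr (ENSMUSG00000022479, chromosome 15, 97854425 to 97910630, minus strand) stood in the control pool at 646.7 CPM in osteo-primed stromal-like (607.8 to 687.5), 169 in osteoblast-like (157.9 to 180.6) and 54.7 in Lepr+ CAR stromal-like cells (46.3 to 64.2). These 3 levels did not overlap and spanned 11.8-fold. In the immobilized pool they were 771, 261.7 and 300.8 CPM (276.4 to 326.9 for the last), so that the range shrank to 2.95-fold and the intervals of the last 2 classes overlapped. Rxra (chromosome 2, 27676440 to 27762957, plus strand), the DNA-binding partner of VDR, varied less, from 17.8 CPM in osteoblast-like to 32.4 in osteo-primed stromal-like control cells. Its levels in osteo-primed and Lepr+ CAR stromal-like cells (28.3 CPM) were not apart in either pool.

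Pth1r (chromosome 9, 110722085 to 110747145, minus strand) stood at 634.2 CPM in osteoblast-like, 568.9 in osteo-primed stromal-like and 128.7 in Lepr+ CAR stromal-like control cells. In the immobilized pool it stood at 632.6, 609 and 97.4 CPM. The first 2 classes had overlapping intervals in the immobilized pool and not in the control pool, and Lepr+ CAR stromal-like cells were the lowest in both, by 4.93-fold and 6.5-fold. Nr3c1 (chromosome 18, 39410545 to 39519421, minus strand), the glucocorticoid receptor gene, stood at 194.6 CPM in Lepr+ CAR stromal-like, 157.1 in osteo-primed stromal-like and 78.8 in osteoblast-like control cells. It was also present in haematopoietic-like cells at 121.3 and 176.8 CPM. Esr1 (chromosome 10, 4611593 to 5005614, plus strand), the oestrogen receptor alpha gene, stood at 777.1, 374.7 and 75.9 CPM in control osteo-primed stromal-like, Lepr+ CAR stromal-like and osteoblast-like cells, a 10.2-fold range, and at 883.6, 495.9 and 110.4 CPM in the immobilized pool. All 3 classes were apart in both pools.

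Within the gp130 family, the shared subunit gene Il6st (chromosome 13, 112464070 to 112510086, plus strand) stood at 250.2 CPM in Lepr+ CAR stromal-like, 140.7 in osteo-primed stromal-like and 64.5 in osteoblast-like control cells. Osmr (chromosome 15, 6813577 to 6874969, minus strand), the oncostatin M receptor gene, followed the same order at 109.2, 88.8 and 9.32 CPM, with the first 2 not apart in the control pool. Lifr (chromosome 15, 7090614 to 7197489, plus strand), the leukaemia inhibitory factor receptor gene, was 6.2-fold higher in osteo-primed stromal-like (5832 CPM) than in osteoblast-like control cells (940.4). A Lifr UMI was found in 98.9% of the control osteo-primed stromal-like cells. Il11ra1 (chromosome 4, 41699989 to 41769474, plus strand), the interleukin 11 receptor alpha gene, was measured in Lepr+ CAR stromal-like cells (39.98 CPM, 110 UMIs) and near the floor elsewhere, with 3 and 15.5 control UMIs in osteo-primed stromal-like and osteoblast-like cells. The feature list also has 3 entries named Il11ra2, copies nearly identical to Il11ra1, each with 0 UMIs in the 3 classes; reads the copies share could have been dropped, so the level of Il11ra1 is uncertain.

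In haematopoietic-like cells 8 of the 9 genes stood at 32.7 CPM or below. Vdr was at 4.67 and 8.91 CPM there, and 2.17% and 2.54% of those cells had a Vdr UMI, at median depths of 2854.5 and 2049.5 UMIs. In Lepr+ CAR stromal-like cells, at median depths of 3969.75 and 4453.5 UMIs, the shares were 16.4% and 54.1%. Osmr had 0 UMIs in haematopoietic-like cells of both pools, which at a floor of 3 counts allows up to 9.33 and 8.91 CPM (the exact Poisson limits are 11.5 and 11 CPM). Lifr reached 31.1 and 32.7 CPM and Esr1 15.6 and 31.2 CPM. Nr3c1 was the exception, and its shares of cells with a UMI there, 32.6% and 30.9%, cannot serve as background.

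Co-detection of receptor partners was computed after thinning each cell to 2000 UMIs, which makes cells of unequal depth comparable and leaves out shallower ones. A UMI of both Il6st and Lifr was found in 29.5% of Lepr+ CAR stromal-like cells in each pool, in 24% and 24.6% of osteo-primed stromal-like cells and in 10.7% and 13.6% of osteoblast-like cells. In Lepr+ CAR stromal-like cells the pair Il6st and Osmr was found in 8.05% of the control (5.94 to 10.6) and 12.3% of the immobilized pool (9.03 to 16.3), and in 0.43% and 0.992% of osteoblast-like cells. Vdr and Rxra together were found in 0.441% of the same control cells (0.0721 to 1.41) and 2.29% of the immobilized ones (0.974 to 4.51), against 3.89% and 5.62% of osteo-primed stromal-like cells. Il6st with Il11ra1 was found in 2.79% and 1.31% of Lepr+ CAR stromal-like cells. The intervals of the pools overlapped for each pair in this class, and at this depth a pair of low genes is missed in most cells that have it.

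The comparison of the pools asks whether the receptors through which RANKL is induced differ after disuse. A gene was counted as different when it had a mean count of at least 50 in either pool and its CPM differed by over 1.5-fold. In Lepr+ CAR stromal-like cells all 9 receptor genes had enough counts. Of them 2 were higher, Vdr and Osmr, and 1 was lower, Il11ra1; over all 7808 genes with enough counts 3.78% were higher and 4.7% lower. The median log2 ratio of the 9 genes was 0.11, beside 0.02 over all genes. In osteo-primed stromal-like cells none of the 8 receptor genes with enough counts was past 1.5-fold, beside 4.24% of genes higher and 2.64% lower. In osteoblast-like cells 2 of 8, again Vdr and Osmr, were higher, beside 14.2% of genes higher and 4.17% lower. The median ratio of all genes with enough counts in both pools was itself shifted there, to 0.21.

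**Figure D2:**
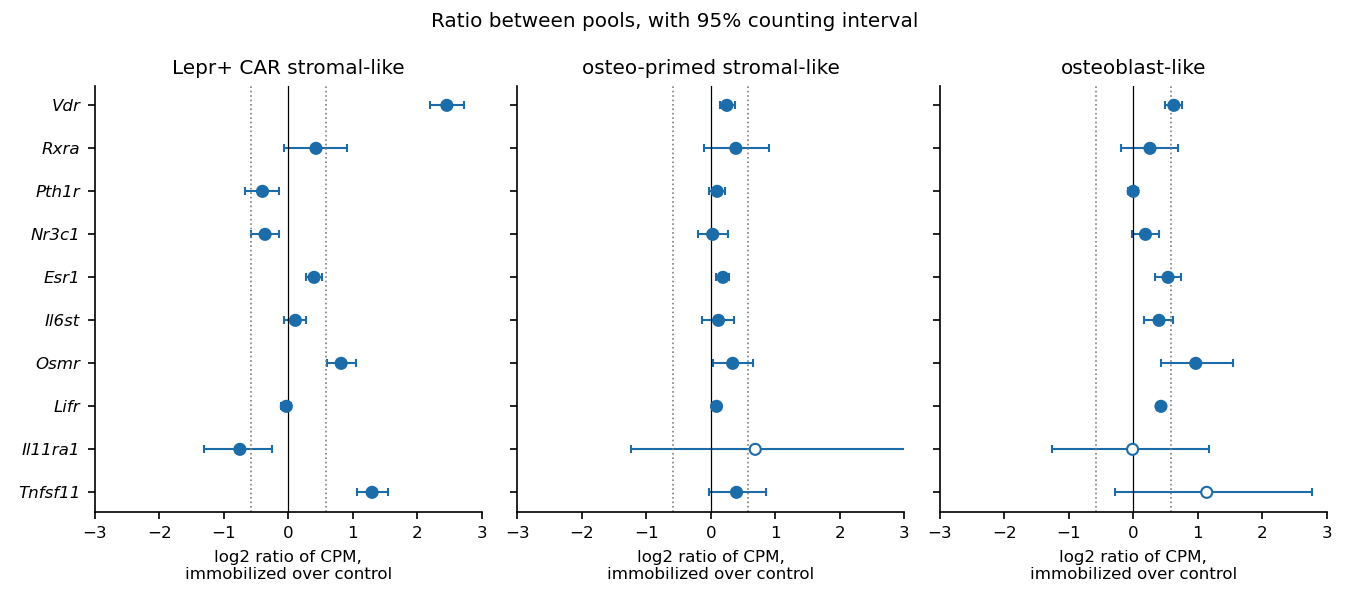
Log2 ratio of CPM, immobilized over control, for each receptor gene and Tnfsf11 in 3 classes; bars are 95% counting intervals, dotted lines mark 1.5-fold, and open points are genes under 50 counts in both pools (the interval of Il11ra1 in osteo-primed stromal-like cells runs past the axis, to 3.37). In Lepr+ CAR stromal-like cells Vdr (2.46), Tnfsf11 (1.30) and Osmr (0.82) lie to the right and Il11ra1 (-0.75) to the left.

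Vdr had the largest difference of the 9 receptor genes. In Lepr+ CAR stromal-like cells it had 150.5 control and 556 immobilized UMIs (54.7 and 300.8 CPM), a 5.49-fold higher level (4.58 to 6.63). The control lanes gave 55.96 and 53.5 CPM. After thinning, 9.74% of control and 35.4% of immobilized cells had a Vdr UMI. Vdr was higher in each of the 3 clusters of the class with at least 20 cells in both pools: at 47.9 and 331 CPM in cluster 0 (log2 ratio 2.77, 2.31 to 3.30), 26 and 152.5 CPM in cluster 2 (2.52, 1.72 to 3.47) and 60.4 and 359.5 CPM in cluster 11 (2.57, 2.14 to 3.02). Cells of each sex showed it, with log2 ratios of 1.94 in female and 2.85 in male cells. Markers of osteo-primed stroma, the class with the highest Vdr, summed to 4584 and 4536 CPM in these cells (7 of 7 detected in each pool). Members of that list went both ways, with Spp1 at 2133 and 1780 CPM and Mmp13 at 382.5 and 667.4 CPM, and the part of such cells in the Vdr ratio was not tested. Osteoblast markers summed to 8292 and 5150 CPM (9 of 9 detected).

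In the same cells Tnfsf11 stood at 247.5 and 410.5 UMIs, a log2 ratio of 1.30 (1.07 to 1.54). In cluster 0, where most immobilized cells lay, its level went from 47.3 to 246.7 CPM (2.37, 1.90 to 2.90), in cluster 11 from 139.1 to 263.4 CPM (0.92, 0.54 to 1.29) and in cluster 2 from 61.2 to 102.6 CPM (0.74, 0.05 to 1.44). Vdr and Tnfsf11 were each higher in all 3 clusters of the class that could be compared. The log2 ratio of Tnfsf11 varied more between these clusters than that of Vdr (2.52 to 2.77). Osmr stood at 300.5 and 357 UMIs (109.2 and 193.2 CPM, log2 ratio 0.82, 0.60 to 1.05). It was higher in cluster 0 (131.2 and 226.8 CPM) and cluster 11 (113.9 and 227.1 CPM) but not in cluster 2, where it stood at 89.7 and 62.1 CPM (-0.51, -1.30 to 0.20). Its log2 ratio was 0.67 in female and 0.86 in male cells. Other marker lists moved in this class too: mature adipocyte markers summed to 191.7 and 691.8 CPM (5 of 6 detected in each pool, Lep at 0) and Sca1+ fibroblast markers to 1096 and 2392 CPM (3 and 4 of 7, with Pi16 and Cd34 at 0). Erythroid markers summed to 130.8 and 344.9 CPM (6 of 6) and granulocyte markers to 172.1 and 347.1 CPM (6 and 7 of 7). The part of these cells or RNAs in the receptor ratios was not tested.

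**Figure D3:**
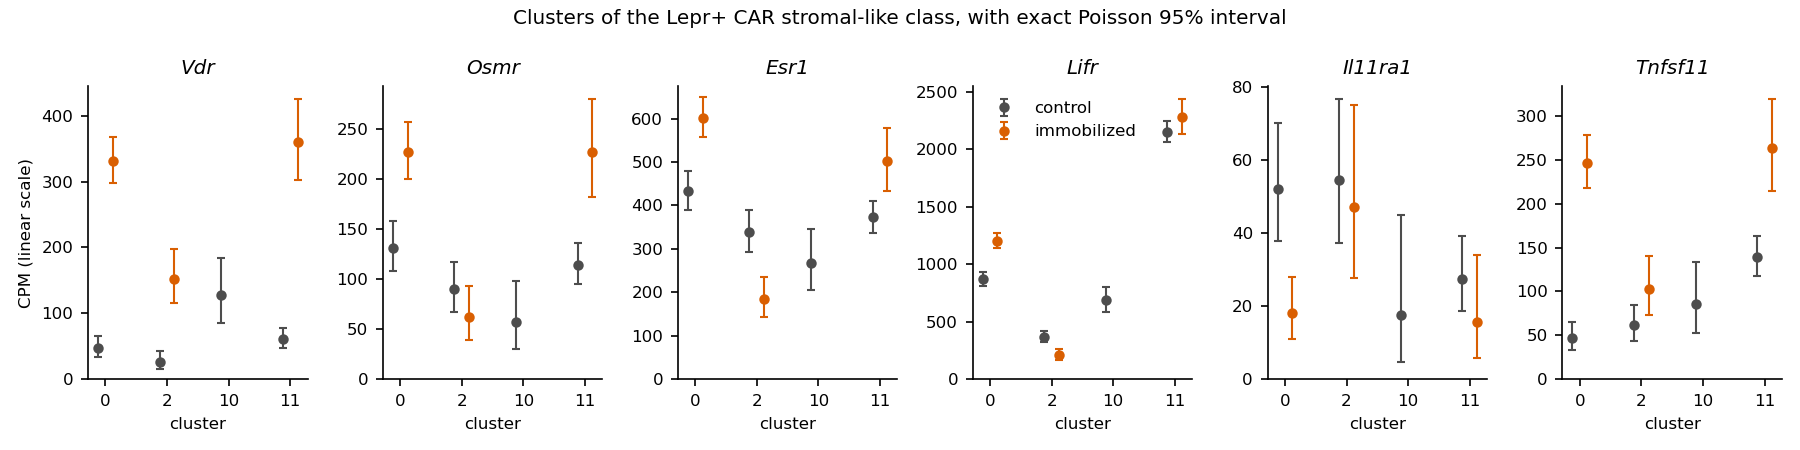
Level (CPM, linear scale from 0) of 5 receptor genes and Tnfsf11 in the 4 clusters of the Lepr+ CAR stromal-like class, control (grey) and immobilized (orange), with exact Poisson 95% intervals; cluster 10 held 49 control and 2 immobilized cells and has a control point only. Vdr and Tnfsf11 stand higher in the immobilized pool in clusters 0, 2 and 11, while Esr1 and Lifr stand higher in cluster 0 and lower in cluster 2.

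Esr1 and Lifr moved in opposite directions in 2 clusters of this class. Esr1 stood at 432.5 and 601.7 CPM in cluster 0 (log2 ratio 0.48, 0.29 to 0.67) and at 338.6 and 184.9 CPM in cluster 2 (-0.87, -1.29 to -0.47). Lifr stood at 870.5 and 1205 CPM in cluster 0 (0.47, 0.34 to 0.60) and at 369.6 and 211.9 CPM in cluster 2 (-0.80, -1.19 to -0.42). Over the whole class Esr1 had a log2 ratio of 0.40 (0.27 to 0.53) and Lifr one of -0.03 (-0.11 to 0.05). The even level of Lifr over the class thus pooled clusters that differed, and its log2 ratio was 0.18 with clusters weighted alike in both pools and 0.53 at Leiden resolution 2.0. The clusters were formed from the same cells, so the opposite directions are a description and were not tested.

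The other receptor genes of Lepr+ CAR stromal-like cells differed by less than 1.5-fold or were lower. Pth1r stood at 128.7 and 97.4 CPM (log2 ratio -0.40, -0.67 to -0.14) and was lower in all 3 clusters, with intervals that held a ratio of 1 in clusters 2 and 11, although at Leiden resolution 2.0, where the class took in more cells, the ratio was 0.13. Nr3c1 stood at 194.6 and 151.2 CPM (-0.36, -0.58 to -0.15). The differences of Rxra (28.3 and 38.1 CPM, 0.43, -0.06 to 0.91) and Il6st (250.2 and 269.2 CPM, 0.11, -0.06 to 0.27) had intervals that held a ratio of 1. Il11ra1 was the 1 receptor gene past 1.5-fold lower, at 110 and 43.5 UMIs (39.98 and 23.5 CPM, -0.75, -1.31 to -0.25). In female cells alone its levels were 25.7 and 19.6 CPM, short of 1.5-fold (-0.34, -1.60 to 0.67).

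In osteo-primed stromal-like cells the receptor genes stood at like levels in both pools. The largest of the ratios with enough counts was that of Rxra, at 32.4 and 42.7 CPM (0.39, -0.10 to 0.91). Vdr stood at 646.7 and 771 CPM (0.25, 0.14 to 0.37). Its log2 ratio was 0.53 in cluster 3 (470 and 681.4 CPM) and 0.10 in cluster 6 (805.7 and 866.7 CPM). Osmr stood at 88.8 and 112.6 CPM (0.34, 0.04 to 0.65), with 93.7 and 97.8 CPM in female cells and 80.4 and 135.4 CPM in male cells. Lifr (5832 and 6198 CPM), Esr1 (777.1 and 883.6 CPM) and Pth1r (568.9 and 609 CPM) had log2 ratios between 0.09 and 0.19. Tnfsf11 stood at 42.8 and 56.9 CPM, a ratio of 0.40 with an interval from -0.02 to 0.85. Over the class the counting interval of Vdr reached a 1.29-fold higher level, which does not bound a difference between animals. The log2 ratio of Vdr had an interval from 0.35 to 0.72 in cluster 3. In male cells it was 0.41 (0.21 to 0.63).

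In osteoblast-like cells Vdr stood at 169 and 261.7 CPM (0.63, 0.50 to 0.76) and Osmr at 9.32 and 18.4 CPM on 48 and 71.5 UMIs (0.97, 0.43 to 1.54). Esr1 (0.54), Lifr (0.43) and Il6st (0.40) lay below 1.5-fold, and Pth1r stood at 634.2 and 632.6 CPM. These ratios moved with the mix of clusters. With clusters weighted alike in both pools Vdr had a ratio of 0.32, Osmr 0.57, Esr1 -0.38 and Lifr -0.13, and in male cells (27 and 92) Vdr stood at -0.15. Within clusters Vdr stood at 181.4 and 187.7 CPM in cluster 4 and 224.3 and 219 CPM in cluster 5, where both intervals held a ratio of 1. It was higher only in cluster 7 among the 3 clusters with at least 20 cells per pool, at 258.1 and 354.1 CPM (0.45, 0.18 to 0.74). Cluster 8 was under that minimum, with 165 control and 16 immobilized cells. Vdr stood there at 122.5 (109 to 137.2) and, on 44.5 UMIs, 208.3 CPM (151.6 to 279.1). Osmr had log2 ratios of -0.53, 0.55 and 0.58 in clusters 4, 5 and 7, with intervals that each held a ratio of 1. Its control level over the class, 9.32 CPM, lay below the Poisson limit of 11.5 CPM in control haematopoietic-like cells. Osteocyte-like cells, 5 and 43, were too few in the control pool for a comparison; in the immobilized pool they held Vdr at 196.4, Il6st at 205.9 and Pth1r at 167.6 CPM.

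**Figure D4:**
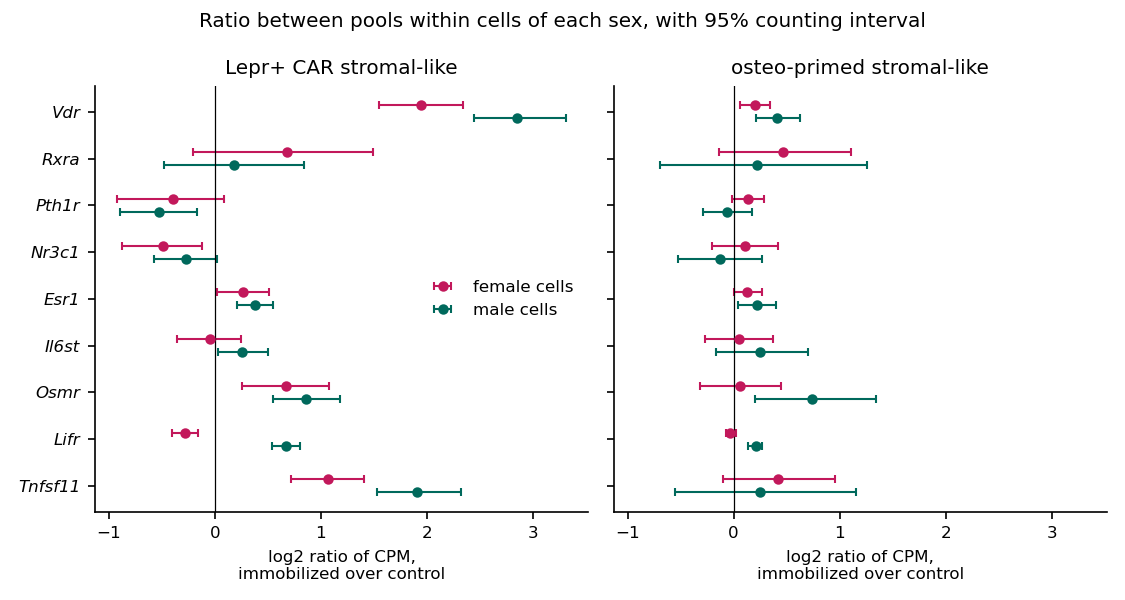
Log2 ratio of CPM, immobilized over control, within female and within male cells of 2 stromal classes (sex called per cell from Xist and Y-linked transcripts), with 95% counting intervals; Il11ra1, with few counts, is left out. Vdr, Osmr and Tnfsf11 lie right of 0 in both sexes of Lepr+ CAR stromal-like cells, and Lifr lies at -0.28 in female and 0.67 in male cells.

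The next comparison asks whether cells with the ligand transcript also carry the receptor transcripts. In control Lepr+ CAR stromal-like cells thinned to 2000 UMIs, an expected 75.7 cells had a Tnfsf11 UMI and 484.8 had none. Of the cells with Tnfsf11 15.6% had a Vdr UMI (8.24 to 25.7), and of those without it 8.83% (6.46 to 11.7), a ratio of 1.76. Vdr was the 1 receptor gene past 1.5-fold, beside 1.45% of the 6557 genes found in at least 10% of these cells, and its intervals overlapped. Rxra, at 3.91% and 5.87%, was the 1 past 1.5-fold in the other direction, beside 3.11% of genes, and its ratio was 1.01 without thinning. Osmr (23.4% and 18.4%), Lifr (81.2% and 69.6%) and Nr3c1 (33.8% and 30.3%) had ratios between 1.11 and 1.27, and Pth1r, Esr1, Il6st and Il11ra1 between 0.921 and 1.03. The Vdr ratio was 1.38 in female and 2.43 in male cells, 1.49 at Leiden resolution 2.0 and 1.33 after thinning to 3000 UMIs. It also differed between clusters. Cluster 11 held 44 of the cells with Tnfsf11, and Vdr was found there in 11.5% with it (3.87 to 24.7) and 10% without. In cluster 0, with 16.1 such cells, the shares were 20.8% (5.04 to 47.8) and 8.05%.

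In immobilized Lepr+ CAR stromal-like cells 103.1 cells had a Tnfsf11 UMI after thinning and 233.4 had none. A Vdr UMI was found in 40.8% of the cells with Tnfsf11 (31.3 to 51) and in 33% of those without (27 to 39.5). None of the 9 receptor genes was past 1.5-fold, beside 0.87% of genes higher and 1.47% lower. Vdr detection was therefore higher than in the control pool both in cells with and in cells without a Tnfsf11 UMI. Read the other way, a Tnfsf11 UMI was found in 21.6% of control cells with Vdr (11.6 to 34.8) and 12.6% of those without (9.86 to 15.8). In the immobilized pool it was found in 35.3% (26.8 to 44.6) and 28.1% (22.2 to 34.6). Cells in which no Vdr UMI was seen thus also had Tnfsf11 more often in the immobilized pool, with intervals that did not overlap. These intervals are over the cells of 1 pool each and do not bound a difference between animals. Cells without a UMI after thinning can still express a gene.

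**Figure D5:**
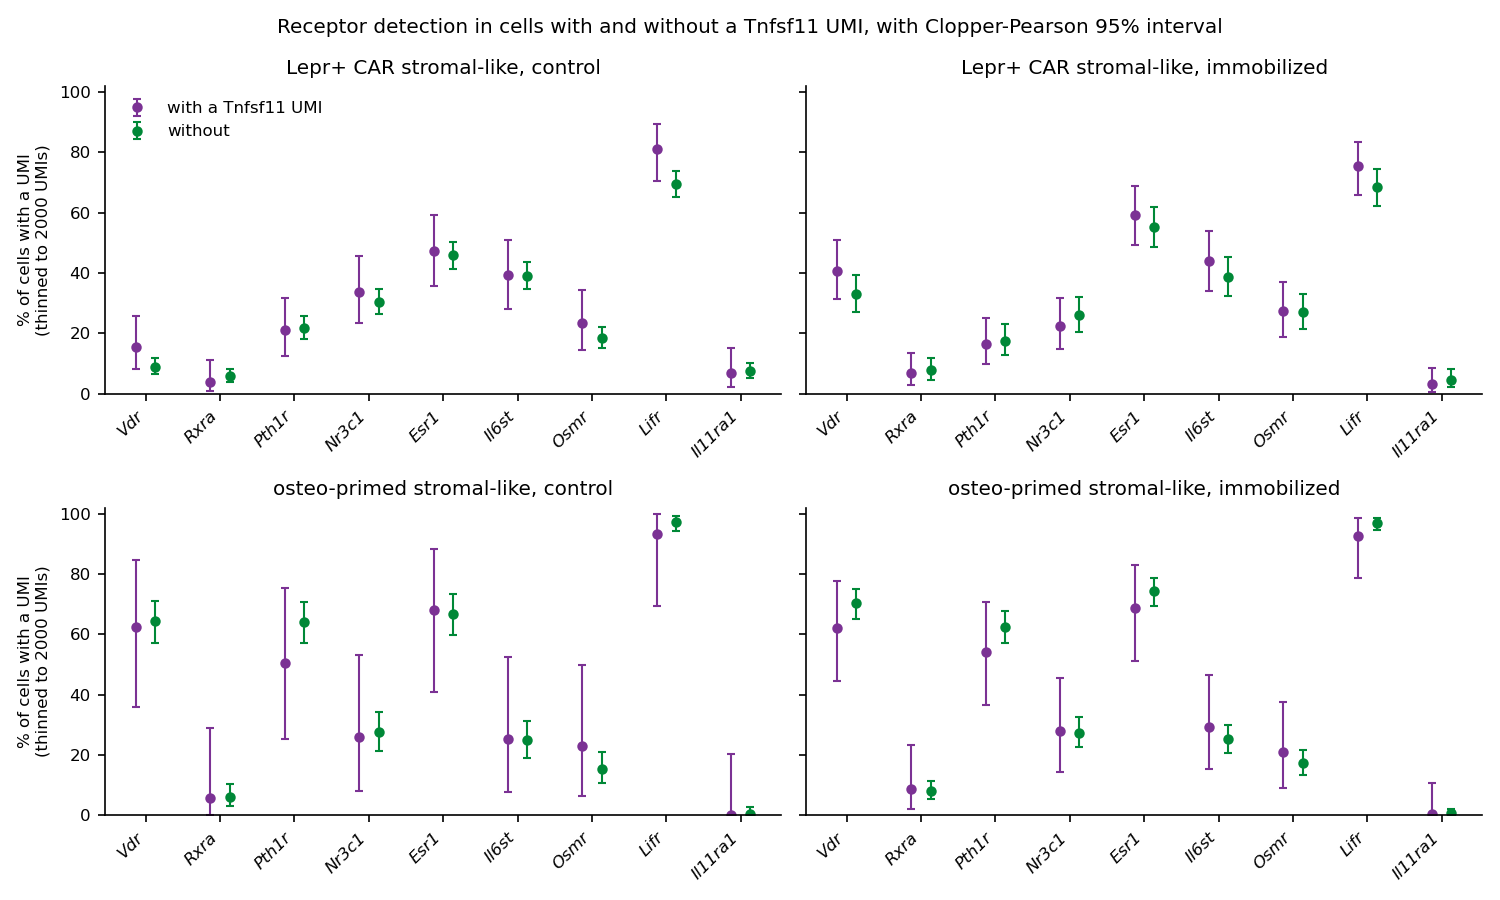
Percent of cells with a UMI of each receptor gene, after thinning to 2000 UMIs, among cells with (purple) and without (green) a Tnfsf11 UMI, in 2 stromal classes and both pools, with Clopper-Pearson 95% intervals. The intervals overlap for every receptor gene in every panel, and Vdr in immobilized Lepr+ CAR stromal-like cells stands at 40.8% and 33%, above 15.6% and 8.83% in the control pool.

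Osteo-primed stromal-like cells gave fewer cells with the ligand transcript, 16.4 among control and 36.1 among immobilized cells. Vdr was found in 62.5% of control cells with Tnfsf11 and 64.3% of those without, and in 62.1% and 70.3% in the immobilized pool. Among the 8 receptor genes found in at least 10% of the class, 1 was past 1.5-fold in the control pool, Osmr at 23% and 15.3% (ratio 1.501), beside 7.36% of genes higher and 12.6% lower. None was past it in the immobilized pool, beside 5.06% higher and 6.72% lower. Pth1r was found in 50.4% and 64% of control cells and in 54% and 62.4% of immobilized cells. Nearly every cell of either class carried some receptor transcript. Of the Lepr+ CAR stromal-like cells with Tnfsf11, 3.1% of control and 2.5% of immobilized ones had none of the 9 after thinning, with on average 2.72 and 2.96 of the 9 genes detected. Of those without Tnfsf11, 4.67% and 4.06% had none, with overlapping intervals, and the averages were 2.47 and 2.79. In osteo-primed stromal-like cells the averages were 3.54 with and 3.67 without Tnfsf11 in the control pool, and 3.647 and 3.825 in the immobilized pool.

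The other genes of these pathways were read from lists of ligand, partner and target genes, with the same shares of all genes past 1.5-fold to read them against. Of the vitamin D list, 15 of 27 genes had enough counts in Lepr+ CAR stromal-like cells, 1 of them was past 1.5-fold higher and none lower (median log2 ratio 0.06), beside 3.78% and 4.7% of all genes and their median of 0.02. That gene was Igfbp3, an insulin-like growth factor binding protein gene listed as a target (145.9 and 288.1 CPM, 0.98, 0.79 to 1.17). Igfbp3 was also among the genes that set cluster 0 most apart from cells outside the class. Cluster 0 held 203 of the 614 control and 210 of the 351 immobilized cells of the class. The part of this cluster mix in the Igfbp3 ratio was not tested. Cyp24a1, the vitamin D-degrading enzyme gene and a standard target of VDR, had 0 UMIs in the 3 classes of both pools. Cyp27b1, the activating enzyme gene, had at most 2 UMIs in any class and pool. In osteoblast-like cells, where 14.2% of all genes were higher and their median was shifted, 3 of 11 were higher: Spp1, an osteopontin gene and target (1249 and 3532 CPM), and the coactivator genes Ncoa3 (0.65) and Ncoa2 (0.59).

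Of the parathyroid hormone list, 27 of 38 genes had enough counts in Lepr+ CAR stromal-like cells, 3 were higher and 4 lower, beside 3.78% and 4.7% of all genes. Higher were the G protein regulator gene Rgs2 (42.5 and 101.5 CPM, 1.25), the collagenase gene Mmp13 (382.5 and 667.4 CPM, 0.80) and Prkaca, which encodes a catalytic subunit of protein kinase A (24.2 and 36.5 CPM, 0.60). Lower were 4 cyclic AMP targets, the orphan receptor genes Nr4a2 (-1.85) and Nr4a1 (-1.07), the AP-1 gene Fos (394 and 155 CPM, -1.34) and Bmp2 (-1.24). The targets thus did not move one way. Per1, a clock gene that cyclic AMP and glucocorticoids both induce, stood at 20.1 and 32.3 CPM in osteo-primed stromal-like cells (0.67) and 17 and 38.4 CPM in osteoblast-like cells (1.17). Pthlh had at most 1 UMI in any class and pool.

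Of the glucocorticoid list, 19 of 21 genes had enough counts in Lepr+ CAR stromal-like cells, with 1 higher and 4 lower, beside the same 3.78% and 4.7%. The higher 1 was Hsd11b1, which encodes the enzyme that regenerates active glucocorticoid (19.99 and 38.4 CPM, 0.94, 0.41 to 1.48). Dusp1, a phosphatase gene (85.4 and 33.8 CPM, -1.33), the chaperone gene Hsp90aa1 (-0.88) and the NF-kappaB inhibitor gene Nfkbia (-0.81) were among the lower. In osteo-primed stromal-like cells 3 of 17 were higher and 3 lower, beside 4.24% and 2.64% of all genes. In osteoblast-like cells 7 of 17 were higher and 2 lower, beside 14.2% and 4.17%, with Zbtb16 at 3.21 and 14.6 CPM (2.16) and Ddit4 at 24 and 53.9 CPM (1.16). Hsp90aa1, which encodes a chaperone of steroid receptors, was past 1.5-fold lower in all 3 classes. Of the oestrogen list, 8 of 15 genes had enough counts in Lepr+ CAR stromal-like cells and 1 was past 1.5-fold, lower as were 4.7% of all genes: Greb1, an oestrogen-induced gene, at 64.5 and 12.2 CPM (-2.38, -3.11 to -1.77). It was past 1.5-fold lower among osteo-primed stromal-like cells too (44.4 and 12.7 CPM, -1.79).

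Of the gp130 list, 19 of 34 genes had enough counts in Lepr+ CAR stromal-like cells, 4 were lower and none higher, beside 4.7% and 3.78% of all genes. The median log2 ratio of the list was -0.34, beside 0.02 over all genes. The parts of the list differed: the median was -0.57 for 9 STAT3 targets and -0.03 for 11 signalling and inhibitor genes, with Socs3 in both. The 4 included Junb (317.1 and 121.2 CPM, -1.39), Fos, and Socs3, the feedback inhibitor of gp130 signalling (141.6 and 82.8 CPM, -0.77, -1.05 to -0.50). Socs3 was also past 1.5-fold lower among osteo-primed stromal-like cells (190.5 and 111.1 CPM, -0.78), where 2 of 17 were lower and none higher, beside 2.64% and 4.24% of all genes. Fos, Junb and the Nr4a genes named above are also immediate early genes. None of the 8 ligand genes had enough counts in any of the 3 classes; Osm had at most 1.5 UMIs. The interleukin 6 receptor alpha gene Il6ra had 13.5 and 9.5 UMIs in Lepr+ CAR stromal-like cells and at most 5 elsewhere. Osmr, higher in Lepr+ CAR stromal-like cells, was thus read beside lower Socs3 and Junb. Of 12 genes of other receptors that induce RANKL, none of the 10 with enough counts was past 1.5-fold in Lepr+ CAR stromal-like cells; Il1r1, an interleukin 1 receptor gene, stood at 489.8 and 609.3 CPM (0.32). In osteoblast-like cells 2 of 5 were higher, Tlr4 (1.09) and Il1rap (0.82), beside 14.2% of all genes.

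Patterns over 26 profiles, each a cluster in 1 pool with at least 20 cells, were compared among 12607 genes by Pearson's r of log2(CPM + 1). The profiles share the 2 libraries, so r is a description. They also include haematopoietic-like, endothelial-like, osteocyte-like and unnamed dividing clusters. Most of the receptor genes were low in haematopoietic-like cells, so the contrast of stroma with blood cells enters r. Among the genes most like Vdr were Tenm4 (0.91) and Sdc2 (0.91), and those most like Lifr were Fap (0.96), Tenm4 (0.96) and Fibin (0.95). Pth1r was most like Plod2 (0.97), a collagen lysyl hydroxylase gene, and Osmr most like Synpo (0.96), Tns2 (0.95) and Fat4 (0.95). Esr1 was most like Ccdc170 (0.96), which lies 49361 bases upstream on the same strand, followed by Csf1 (0.93), the M-CSF gene. Il6st was most like Cped1 (0.97), Rxra like Mpzl1 (0.97), Nr3c1 like Zeb1 (0.90) and Il11ra1 like Proca1 (0.88). Among the receptor genes themselves the closest pairs were Il6st with Osmr (0.92), Lifr with Vdr (0.88) and Esr1 with Lifr (0.87). With Tnfsf11 the values ran from 0.82 for Esr1 and 0.77 for Osmr down to 0.45 for Vdr, 0.31 for Nr3c1 and 0.22 for Pth1r.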

How the data were processed

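Deposited values were raw UMI counts per gene and barcode in 4 libraries, made by the authors with Cell Ranger 7.0.0 on mm10, per the submitters' processing notes; which annotation they used is not given in these sources. Gene positions come from GENCODE vM21 (GRCm38). Barcodes in both lanes of a group were kept if they had 500 genes or more and a mitochondrial share below 10%. Scrublet calls (18 control barcodes, 1.11%, and 9 immobilized, 0.515%) were removed. Counts were scaled to 10000 per cell, log-transformed and clustered in scanpy 1.11.5 (2000 variable genes, 30 components, 15 neighbours, Leiden resolution 1.0, igraph 0.11.9) into 16 clusters, 2 of them unnamed. Naming a cluster took 3 or more markers, and 30% or more of those listed, of 1 of 22 cell types, each over 2-fold the median of the clusters and with a UMI in 10% of the cluster; this scoring was set after the clusters were seen. Sex was called from Xist against Y-linked genes.

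UMIs were summed per class, lanes averaged. Log2 ratios use a pseudocount of 0.5 counts and conditional binomial intervals, levels exact Poisson and shares Clopper-Pearson intervals, all at 95%. Intervals of ratios and levels cover counting error only, and those of shares count each cell as 1 draw. Thinning used the exact hypergeometric expectation. Named list genes are the up to 3 highest and 3 lowest per pathway and class with at least 50 counts and an interval without a ratio of 1; Cyp24a1, Cyp27b1, Pthlh, Osm, Il6ra and Nr4a1 were added after their values were seen. The receptor genes and all lists were chosen with earlier results of these data known. The ratio and thinning steps were tested on simulated data. Alternatives changed scaling, count minimum, cell filter, doublets, clustering, cluster mix, sex, lane and thinning depth.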

Additional observations from a re-analysis of the deposited data

Results flagged for a closer look

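For 2 receptor genes the difference between the pools pointed in opposite directions in female and male cells, with counting intervals that both left out a ratio of 1. The difference between the sexes was not tested, since each group is 1 pool. Lifr in Lepr+ CAR stromal-like cells stood at 1850 CPM in control and 1523 CPM in immobilized female cells (281 and 95 cells, log2 ratio -0.28, -0.40 to -0.16). In male cells it stood at 692.5 and 1100 CPM (266 and 214 cells, 0.67, 0.54 to 0.80), a female minus male difference of -0.95. Control female cells thus had a higher Lifr level than control male cells. Esr1 in osteoblast-like cells stood at 70.4 and 125.3 CPM in female cells (0.83, 0.61 to 1.05) and at 162.1 and 63.7 CPM in male cells (-1.35, -1.94 to -0.74), a difference of 2.18. Only 27 control osteoblast-like cells were called male, beside 414 female. Both genes also varied between clusters of these classes. Control Lifr ran from 369.6 CPM in cluster 2 to 2155 CPM in cluster 11. Control Esr1 ran from 34.98 CPM in cluster 8 to 261.1 CPM in cluster 7. With the sexes together, Esr1 had log2 ratios of -0.34, -0.06 and -0.54 in clusters 4, 5 and 7. The part of the cluster mix in the sex split was not tested.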

How the results depend on the processing

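No paired analysis was possible because the replicate numbers of the labels are lanes of 1 library per group. In Lepr+ CAR stromal-like cells Vdr (log2 ratio 1.94 to 2.85) and Osmr (0.67 to 0.89) were past 1.5-fold under every alternative run. The count of lower receptor genes there was 0 in female cells. Receptor genes higher in osteo-primed stromal-like cells numbered 1 with no count minimum (Il11ra1), in male cells and at Leiden resolution 2.0. In osteoblast-like cells they numbered 1 with median-ratio scaling and with Scrublet calls kept, 0 at 1 cluster mix, in male cells and with the looser filter, and 4 with the stricter filter; 1 was lower in male cells. There Vdr stood at -0.15 in male cells, and Il11ra1 in osteo-primed stromal-like cells, on 3 and 8 UMIs, at -0.30 in male cells and -0.47 with the stricter filter. List genes past 1.5-fold numbered 31 with no count minimum and 27 in female cells in Lepr+ CAR stromal-like cells (17 as reported), 46 and, for male cells, 3 among osteo-primed stromal-like cells (11 as reported), and 50, 10 at 1 cluster mix and 3 in male cells in osteoblast-like cells (27 as reported). With the looser filter 5 receptor genes were highest in immobilized Lepr+ CAR stromal-like cells, against 3. Receptor genes past 1.5-fold higher in control Lepr+ CAR stromal-like cells with Tnfsf11 numbered 0 in female cells, after thinning to 3000 UMIs and at Leiden resolution 2.0, and 2 in male cells; the ratio of Rxra was 1.005 in female cells and 1.009 with no thinning. In osteo-primed stromal-like cells the control count of 1 was 0 in female cells, after thinning to 3000 UMIs, with no thinning and at Leiden resolution 0.5, and 0 to 1 with a lane left out; the immobilized count was 1 in male cells. The causes were not tested. Counts under the alternatives are given without the share of all genes past 1.5-fold in the same setting. They show how the reported counts move and are no result about the receptor genes or lists. Depth limits Il11ra1, Rxra and every value on Tnfsf11 in osteoblast-like cells (7 and 12 UMIs).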
